A study of Mus musculus with 6 samples.

Results

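The genes described here are those of lysosomal acidification and of the lysosomal membrane. They were chosen by name: every gene whose symbol starts with Atp6v or Atp6ap, without Atp6v0d2, together with Tcirg1, Clcn7, Ostm1, Mcoln1, Lamp1, Lamp2, Cd63, Cd68, Scarb2, Npc1, Npc2 and Lipa. Of 22180 genes measured, 36 were members. The rule itself uses no measured value, but it was set with earlier results of these data known. They were 13 genes named as subunits of the V1 sector of the proton pump, 8 of its V0 sector with Tcirg1, 3 accessory proteins, 3 genes of ion transport, 5 membrane glycoproteins and 3 genes of lipid handling. The remaining member, Atp6v1fnb, is named for lying beside Atp6v1f and is not known as a pump subunit. Atp6v0c, the gene of the main proteolipid of the pump, was not analysed here.

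Macrophages were grown from bone marrow monocytes of 3 C57BL/KaLwRij mice with M-CSF for 7 days. All of them then spent a night in coculture with 5TGM1-luc, a mouse myeloma line marked with luciferase. Over the next 3 days 3 cultures received an antibody to mouse CSF1R at 0.5 nM, and 3 received a control IgG whose own dose is not stated. CSF1R is the receptor for M-CSF and IL-34. Myeloma cells were removed by 4 washes before total RNA was taken, and each RNA was measured on 1 whole-transcript array. Both groups therefore share the strain, M-CSF and the myeloma cells, and they differ by the antibody. The labels tie no replicate to a mouse and do not say whether marrow was pooled. The p-values therefore weigh each difference between groups against the spread of these samples only, and that spread may be technical. The 3 arrays per group limit the precision of each value.

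Array medians over all probe sets ran from 4.88 to 4.95 on the log2 scale. Pearson correlations across probe sets were 0.992 to 0.993 within groups and 0.984 to 0.985 between groups. Of 10 macrophage markers, 9 were measured, and all 9 lay above a guide to background and were higher with the antibody. The guide is a level of 4.92, below which 95% of 1394 odorant and pheromone receptor genes lay, a class that macrophages are not thought to use. The summed level of the macrophage markers was 14.79 to 14.84 with the antibody and 13.94 to 14.01 with IgG. RNA of plasma cells was also present on all arrays: the summed level of 11 plasma cell and myeloma markers was 13.99 to 14.12 with the antibody and 14.33 to 14.37 with IgG, and 1 of these markers lay below the guide. In such mixed RNA, fewer cells of a type and less RNA per cell cannot be told apart. Lysosomes are present in both cell types, and the part of the shift between the marker lists in the changes below was not tested.

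The lysosome is kept acid by the vacuolar ATPase, a rotary pump that moves protons into the organelle. Its V1 sector lies in the cytosol and splits ATP, and its V0 sector lies in the membrane and carries the protons. Acid activates the hydrolases of the lumen, ion transporters balance the charge, and heavily glycosylated proteins such as LAMP1 and LAMP2 line the inner face of the membrane. Macrophages are rich in lysosomes, with which they break down what they engulf. Many lysosomal genes are known targets of TFEB and TFE3, transcription factors of the MiT/TFE family, which bind an E-box within a longer motif named CLEAR.

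With the antibody, 21 of the 36 members were higher and 0 were lower at an adjusted p under 0.05 (limma, Benjamini-Hochberg over all genes). Over all 22180 genes, 12.5% were higher and 16.0% were lower, and over the 13116 genes above the guide 20.1% were higher and 26.0% were lower. The members' share was thus 58.3% in the upward direction. The median log2 difference was 0.27 over the 36 members and -0.02 over all genes. Members above the guide in at least 1 group numbered 32, of which 20 were higher, with a median of 0.29. The 3 antibody arrays lay wholly above the 3 IgG arrays for 23 members and wholly below them for 1, or 66.7% of members. Over all genes 39.3% did not overlap, with the antibody above for 16.6% and below for 22.7%, and over genes above the guide 59.8% did not overlap. Rises of at least 1.5-fold that passed the test were seen for 6 members, Cd63, Clcn7, Tcirg1, Scarb2, Npc2 and Npc1. Over all genes 6.18% passed with such a rise. Antibody replicate 3 was the highest of its group for 29 of the 36 members, or 80.6%, against 42.9% of all genes. Without that array 19 members were higher, with a median of 0.24.

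**Figure D1:**
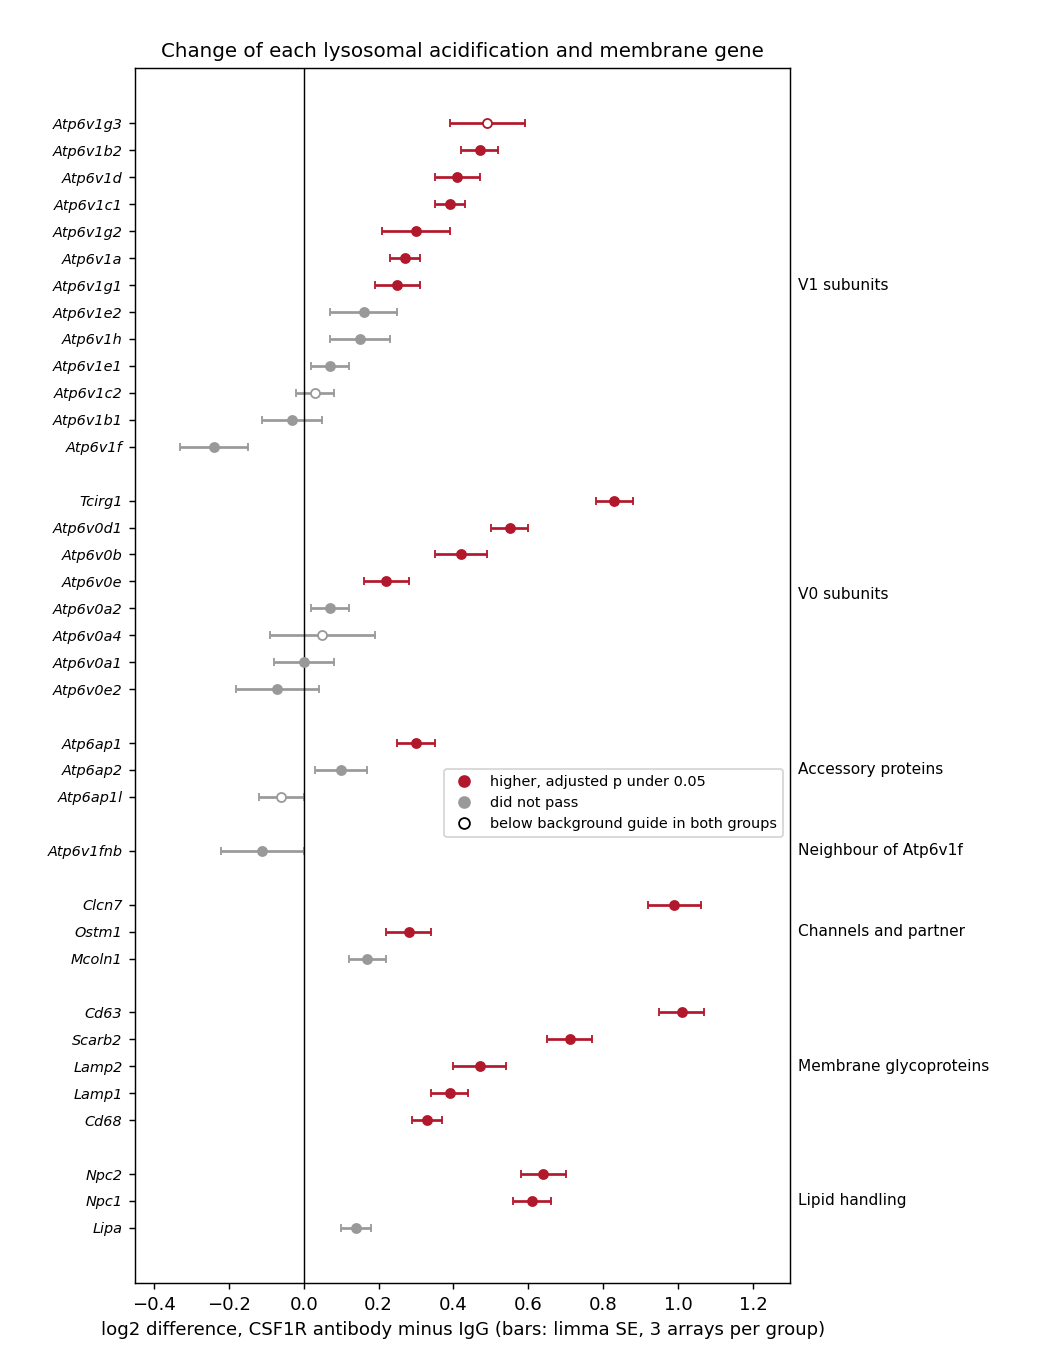
Log2 difference between CSF1R antibody and IgG arrays (horizontal axis) for each of the 36 members, grouped by role, with bars for limma's standard error from 3 arrays per group. Points in red passed the test and points in grey did not. Open points were under the background guide with either treatment. The largest differences are those of Cd63, at 1.01, and Clcn7, at 0.99, and the lowest is that of Atp6v1f, at -0.24, which did not pass.

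The promoters of the members are shown for the E-box because TFE3 and its relatives were themselves measured here. RefSeq promoters of GRCm38.p6 (250 bases before to 50 after an annotated start) were at hand for 29 of the 36 members, in 33 promoters. Both strands were searched for CACGTG, which reads the same on each, and for TCACGTG, which contains it. At least 1 CACGTG was found in the promoters of 7 members, or 24.1% of the 29, beside 8.09% of 27025 genes in the table. Per promoter the share was 21.2% among members and 7.15% among all 32851. These shares use no array value. Many lysosomal genes are known targets of factors that bind this motif, so a higher share among members was likely in advance. All 7 also held TCACGTG on at least 1 strand, which 4.29% of genes in the table did. Matches in the members' promoters numbered 4 for Lamp1, 2 each for Clcn7, Atp6v0b and Mcoln1, and 1 each for Atp6v0d1, Atp6v0e and Atp6v1a. Of these 7 genes, 6 rose with the antibody, and Mcoln1 did not pass. Of all 29 members with a promoter entry, 17 rose and 12 did not pass. The 11 rising members with no match include Cd63 and Tcirg1, which were among the largest rises.

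The windows below run from 80 bases before to 20 after the start on the gene's own strand, except that of Atp6v1a, which runs from 180 to 81 bases before it. They are the 7 promoters with a match, and that of Cd63, the member with the largest rise, for contrast. Capitals mark CACGTG.
Lamp1: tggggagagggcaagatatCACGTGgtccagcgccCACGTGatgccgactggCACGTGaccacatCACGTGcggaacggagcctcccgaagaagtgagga
Clcn7: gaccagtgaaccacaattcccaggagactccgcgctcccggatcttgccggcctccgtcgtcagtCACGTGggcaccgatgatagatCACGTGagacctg
Mcoln1: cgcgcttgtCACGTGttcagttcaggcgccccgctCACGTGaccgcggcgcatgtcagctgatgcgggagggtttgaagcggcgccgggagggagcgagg
Atp6v0b: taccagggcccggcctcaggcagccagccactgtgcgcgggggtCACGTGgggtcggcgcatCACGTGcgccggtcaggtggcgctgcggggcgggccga
Atp6v0d1: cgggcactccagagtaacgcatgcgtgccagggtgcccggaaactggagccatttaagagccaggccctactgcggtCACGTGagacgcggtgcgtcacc
Atp6v0e: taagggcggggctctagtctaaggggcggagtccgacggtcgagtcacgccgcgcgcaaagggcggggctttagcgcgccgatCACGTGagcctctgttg
Atp6v1a: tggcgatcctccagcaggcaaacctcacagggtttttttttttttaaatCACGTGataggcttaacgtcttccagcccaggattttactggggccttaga
Cd63: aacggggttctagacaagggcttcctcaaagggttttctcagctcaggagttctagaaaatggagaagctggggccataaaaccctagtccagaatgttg

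In GRCm38.p6 these windows lie at chr8:13159081-13159180 on the plus strand for Lamp1, chr17:25133311-25133410 on the plus strand for Clcn7 and chr8:3500439-3500538 on the plus strand for Mcoln1. That of Atp6v0b lies at chr4:117887310-117887409 on the minus strand, and that of Atp6v0d1 at chr8:105566045-105566144 on the minus strand. Those of Atp6v0e, Atp6v1a and Cd63 lie at chr17:26676316-26676415 on the plus strand, chr16:44139340-44139439 on the minus strand and chr10:128909265-128909364 on the plus strand. In Lamp1 the 4 matches start 61, 45, 28 and 15 bases before the start, all within the printed window. In Atp6v0d1 the match lies across the start, from 3 bases before it to base 3 after it. A match is a run of letters and not a measured binding site, and an absent match says only that the letters are not in that window.

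**Figure D2:**
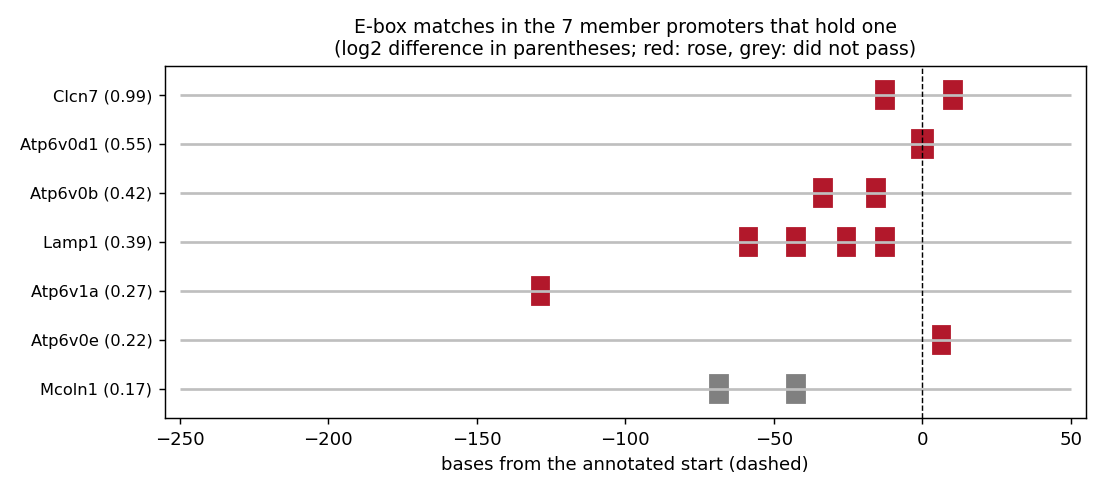
Position of each CACGTG match (blocks) in bases from the annotated start (dashed line) in the 7 member promoters that hold one, with the gene's log2 difference in parentheses. Red genes rose with the antibody and the grey gene, Mcoln1, did not pass. The matches lie within 71 bases before the start and 13 bases after it, except that of Atp6v1a, which starts 131 bases before it.

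Among V1 genes, 7 of 13 rose and 0 fell, with a median difference of 0.25. Atp6v1b2, the ubiquitous form of the B subunit that helps to bind ATP, stood at 10.65, 10.68 and 10.62 on the IgG arrays and at 11.09, 11.09 and 11.16 on the antibody arrays. The groups did not overlap, and the rise was 0.47 (SE 0.05; 1.38-fold; limma adjusted p = 0.00053). Atp6v1a, the catalytic A subunit, stood at 11.18, 11.18 and 11.21 with IgG and at 11.44, 11.45 and 11.48 with the antibody. It rose by 0.27 (SE 0.04; limma adjusted p = 0.0039), and the arrays of each group lay close together.

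Atp6v1c1, the C subunit, which is released when the sectors of the pump come apart, read 9.77, 9.75 and 9.72 with IgG and 10.13, 10.13 and 10.16 with the antibody, a rise of 0.39 (SE 0.04; limma adjusted p = 0.00087). Atp6v1d, the central rotor stalk, read 9.35, 9.40 and 9.28 with IgG and 9.70, 9.85 and 9.72 with the antibody, a rise of 0.41 (SE 0.06; limma adjusted p = 0.0027). In both genes every antibody array lay above every IgG array. Atp6v1g1, a peripheral stalk subunit, rose by 0.25 (SE 0.06; limma adjusted p = 0.017). That call was lost without IgG replicate 1 (adjusted p = 0.052), without IgG replicate 2 (0.058) and with the mean of its probe sets (0.085). Atp6v1e1, which pairs with the G subunit in the peripheral stalk, read 9.97, 9.93 and 9.97 with IgG and 10.06, 9.96 and 10.06 with the antibody, and the groups overlapped (difference 0.07, SE 0.05; limma adjusted p = 0.38). With cyclic loess scaling it passed, at 0.19 (adjusted p = 0.040).

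Atp6v1g2, a form of the G subunit known from neurons, rose by 0.30 (SE 0.09; limma adjusted p = 0.042). The call was lost when any array but IgG replicate 1 was left out, with adjusted p from 0.061 to 0.12. Atp6v1g3, a form of the G subunit known from kidney, passed with a difference of 0.49 (SE 0.10; limma adjusted p = 0.0088), from 3.71, 3.86 and 3.88 with IgG to 4.14, 4.48 and 4.32 with the antibody. All 6 values lay below the background guide of 4.92, so this change may not measure the transcript. Atp6v1h, a regulatory subunit of V1, did not pass, at 7.87 ± 0.14 (SD, n = 3) against 7.73 ± 0.07.

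Atp6v1f, a rotor subunit, was the 1 member whose antibody arrays lay wholly below the IgG arrays. It read 6.49, 6.49 and 6.47 with IgG and 6.42, 6.09 and 6.23 with the antibody, a difference of -0.24 (SE 0.09) that did not pass (limma adjusted p = 0.092). It passed without antibody replicate 1 (-0.32; adjusted p = 0.019), when the test was limited to genes of above-median signal (0.034) or to genes above the guide (0.045). Its neighbour Atp6v1fnb read 5.14 to 5.59 with IgG and 5.21 to 5.28 with the antibody (difference -0.11; adjusted p = 0.56).

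Atp6v1b1, the B subunit of kidney and inner ear, read 4.84 to 5.00 with IgG and 4.77 to 5.00 with the antibody, near the guide. Atp6v1c2 read 3.83 to 3.90 and 3.89 to 3.93, below it. Atp6v1e2, a form known from testis, read 5.27 to 5.52 and 5.41 to 5.63, a little above it. None of these 3 passed, with limma adjusted p of 0.84, 0.70 and 0.27.

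Among V0 genes, 4 of 8 rose and 0 fell, with a median difference of 0.14. Tcirg1 encodes the a3 form of the large a subunit, the form of lysosomes and of the bone-resorbing border of osteoclasts. It read 10.21, 10.31 and 10.19 with IgG and 11.03, 11.08 and 11.10 with the antibody, a rise of 0.83 (SE 0.05; 1.78-fold; limma adjusted p = 7.0e-05). Its paralogs did not pass the test. Atp6v0a1, the a1 form known best from neurons, read 10.87, 10.91 and 10.85 with IgG and 10.78, 10.81 and 11.03 with the antibody. The antibody arrays spread around the IgG arrays, with adjusted p = 0.98. Atp6v0a2, the a2 form of the Golgi and early endosomes, read 9.10, 9.12 and 9.13 against 9.11, 9.19 and 9.25 (difference 0.07, SE 0.05; limma adjusted p = 0.42). It passed with cyclic loess, at 0.18 (adjusted p = 0.026). Atp6v0a4, the a4 form of kidney, lay below the guide in both groups, at 3.92 to 4.26 and 3.92 to 4.37.

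Atp6v0d1, the ubiquitous d subunit that couples the rotor stalk to the membrane ring, read 10.19, 10.25 and 10.25 with IgG and 10.75, 10.75 and 10.84 with the antibody. It rose by 0.55 (SE 0.05; 1.46-fold; limma adjusted p = 0.00033). Its paralog Atp6v0d2, the osteoclast form and not a member, differed by 0.19 (SE 0.06; limma adjusted p = 0.045). That call was lost without any array but IgG replicate 3, with adjusted p from 0.070 to 0.12, and with median centring (0.072). Atp6v0b, a proteolipid of the membrane ring, read 10.24, 10.16 and 10.23 with IgG and 10.54, 10.59 and 10.75 with the antibody, a rise of 0.42 (SE 0.07; limma adjusted p = 0.0040). Antibody replicate 3 was the highest of its group, and the lowest antibody array still lay above every IgG array.

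Atp6v0e, the small e subunit, rose by 0.22 (SE 0.06; limma adjusted p = 0.034), from 10.26, 10.24 and 10.31 to 10.44, 10.44 and 10.59. Leaving out any 1 array ended the call, with adjusted p from 0.052 to 0.098, as did median centring (0.053). Atp6v0e2, its paralog known from brain, read 5.20 to 5.33 with IgG and 4.96 to 5.35 with the antibody, close to the guide (adjusted p = 0.72).

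Paralogs of the pump and of the LAMP proteins were compared within arrays, as the difference of their log2 values between groups. This shows unequal change and not which paralog is more abundant. The log2 ratio of Tcirg1 to Atp6v0a1 was higher with the antibody by 0.84, and no antibody array overlapped an IgG array (exact permutation test, two-sided p = 0.10; 0.15 after Benjamini-Hochberg adjustment over 6 pairs). With 3 against 3 arrays, 0.10 is the smallest p this test can give. Atp6v1b2 over Atp6v1b1 was higher by 0.50, Atp6v1c1 over Atp6v1c2 by 0.36 and Atp6v0e over Atp6v0e2 by 0.29, each without overlap (exact p = 0.10, adjusted 0.15). The second gene of each of these 3 pairs lay near or below the guide. Atp6v0a2 over Atp6v0a1 differed by 0.07 and Lamp1 over Lamp2 by -0.08, with overlapping arrays (exact p = 0.30, adjusted 0.30).

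Of the accessory proteins, Atp6ap1, an assembly factor that stays with the pump, rose by 0.30 (SE 0.05; limma adjusted p = 0.0032). It read 10.98, 10.96 and 11.01 with IgG and 11.24, 11.30 and 11.31 with the antibody, with no overlap. Atp6ap2, also known as the prorenin receptor, read 10.55, 10.62 and 10.59 against 10.58, 10.65 and 10.82. Antibody replicate 1 lay within the range of the IgG arrays, and the difference of 0.10 (SE 0.07) did not pass (limma adjusted p = 0.39). It passed with cyclic loess, at 0.21 (adjusted p = 0.032). Atp6ap1l lay below the guide, at 3.55 on every IgG array and 3.37 to 3.55 with the antibody.

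Of the ion transport genes, Clcn7 and Ostm1 rose. Clcn7 encodes a chloride and proton exchanger of the lysosomal membrane, and Ostm1 its partner subunit, without which the exchanger is unstable. Clcn7 read 8.99, 9.01 and 8.79 with IgG and 9.90, 9.90 and 9.95 with the antibody, a rise of 0.99 (SE 0.07; 1.98-fold; limma adjusted p = 0.00012). IgG replicate 3 was the lowest array, and the groups were far apart with or without it. Ostm1 read 8.83, 8.85 and 8.94 with IgG and 9.10, 9.10 and 9.25 with the antibody, a rise of 0.28 (SE 0.06; limma adjusted p = 0.018). That call was lost without IgG replicate 1 (adjusted p = 0.064) or IgG replicate 2 (0.062). A second Ostm1 probe set with lower signal read 5.29 ± 0.10 with IgG and 5.40 ± 0.05 with the antibody (SD, n = 3; limma adjusted p = 0.38 over all probe sets).

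Mcoln1, the calcium channel TRPML1 of the lysosome, read 9.14, 9.18 and 9.19 with IgG and 9.29, 9.30 and 9.42 with the antibody. The groups did not overlap, but the difference of 0.17 (SE 0.05) did not pass (limma adjusted p = 0.060). It passed with an intensity trend (adjusted p = 0.019), with cyclic loess (0.29; adjusted p = 0.0043) and when genes of low signal were left out (adjusted p = 0.018 above the median signal and 0.025 above the guide).

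All 5 membrane glycoproteins rose, with a median difference of 0.47. Cd63, a tetraspanin of late endosomes and exosomes, had the largest rise of any member. It read 9.37, 9.46 and 9.51 with IgG and 10.43, 10.43 and 10.53 with the antibody, a rise of 1.01 (SE 0.06; 2.02-fold; limma adjusted p = 4.8e-05). Scarb2 encodes LIMP-2, which carries glucocerebrosidase to the lysosome. It read 9.31, 9.36 and 9.28 with IgG and 9.97, 9.98 and 10.13 with the antibody, a rise of 0.71 (SE 0.06; 1.64-fold; limma adjusted p = 0.00028). For both genes the gap between the groups was several times the range within either.

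Lamp1 and Lamp2, among the most abundant proteins of the lysosomal membrane, both rose. Lamp1 read 11.94, 11.98 and 11.93 with IgG and 12.28, 12.35 and 12.39 with the antibody, a rise of 0.39 (SE 0.05; 1.31-fold; limma adjusted p = 0.0015). Lamp2, which also serves chaperone-mediated autophagy, read 10.64, 10.83 and 10.79 with IgG and 11.19, 11.18 and 11.32 with the antibody, a rise of 0.47 (SE 0.07; limma adjusted p = 0.0029). Cd68, the LAMP family protein used to mark macrophages, read 12.48, 12.49 and 12.53 with IgG and 12.83, 12.85 and 12.83 with the antibody, a rise of 0.33 (SE 0.04; limma adjusted p = 0.0015). Cd68 is also 1 of the 9 macrophage markers, and its difference was the lowest of the 9, whose median was 1.24.

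**Figure D3:**
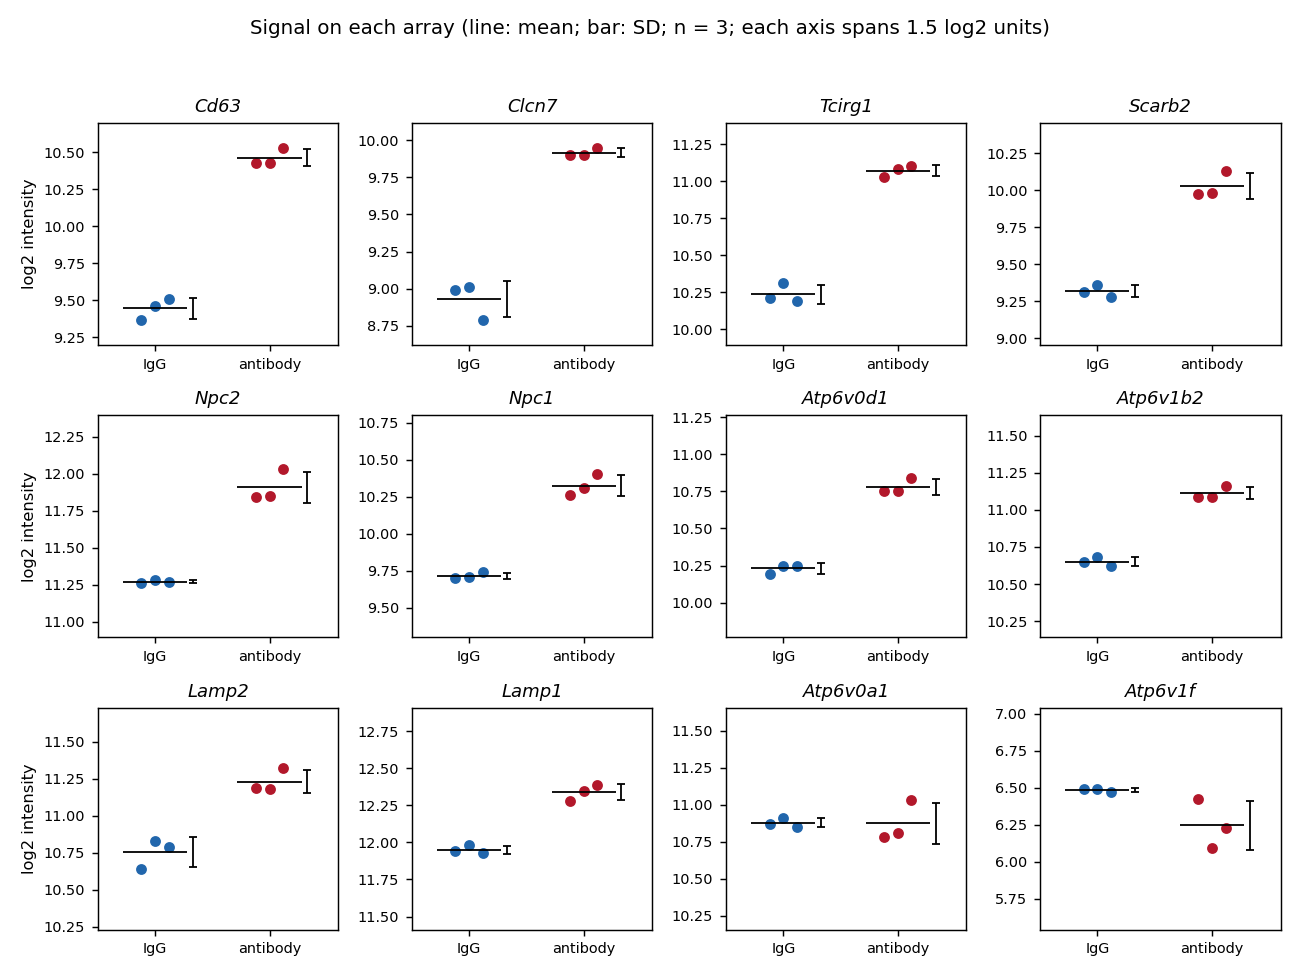
Log2 intensity on each array (points) for 12 members, IgG in blue and CSF1R antibody in red, with the mean as a line and the SD as a bar (n = 3 per group). Every vertical axis spans 1.5 log2 units but starts at a different level. The groups are apart for the 10 genes from Cd63 to Lamp1, overlap for Atp6v0a1, and lie close together with the antibody below for Atp6v1f.

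The genes of lipid handling move cholesterol out of the lysosome. Npc2 is the soluble carrier of cholesterol, Npc1 the membrane protein that takes it over, and Lipa the acid lipase that frees it from its esters. Npc2 read 11.26, 11.28 and 11.27 with IgG and 11.84, 11.85 and 12.03 with the antibody, a rise of 0.64 (SE 0.06; 1.55-fold; limma adjusted p = 0.00049). Npc1 read 9.70, 9.71 and 9.74 with IgG and 10.26, 10.31 and 10.40 with the antibody, a rise of 0.61 (SE 0.05; 1.52-fold; limma adjusted p = 0.00030). In both genes the IgG arrays were nearly equal and the antibody arrays lay well above them. A second Npc1 probe set with low signal read 5.37 ± 0.19 with IgG and 5.21 ± 0.22 with the antibody, and with the mean of both probe sets the difference was 0.22 (adjusted p = 0.11). Lipa read 12.28, 12.32 and 12.27 with IgG and 12.42, 12.41 and 12.45 with the antibody. Its difference of 0.14 (SE 0.04) did not pass (limma adjusted p = 0.066), although the groups did not overlap. It passed with an intensity trend (adjusted p = 0.0054), with cyclic loess (0.24; adjusted p = 0.0065) and when genes of low signal were left out (adjusted p = 0.018 and 0.025).

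The factors of the MiT/TFE family rose in 3 of 4 cases. Tfec, a member of the family restricted largely to macrophages, read 7.07, 6.83 and 6.97 with IgG and 8.88, 8.94 and 8.90 with the antibody, a rise of 1.95 (SE 0.07; 3.88-fold; limma adjusted p = 1.1e-05). Mitf, which also acts in osteoclasts and pigment cells, rose by 0.93 (SE 0.05; limma adjusted p = 4.8e-05), and Tfe3 by 0.45 (SE 0.06; limma adjusted p = 0.0021). Tfeb, named after its values were seen, read 5.41 to 5.66 with IgG and 5.60 to 5.76 with the antibody, with overlapping groups (adjusted p = 0.21). Activity of these factors is set largely by their entry into the nucleus, which arrays do not measure.

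Of 13 genes of the Ragulator, Rag and folliculin system, which docks the growth kinase mTORC1 on the lysosome, 10 rose and 0 fell, with a median of 0.51. Rragd, the RagD GTPase, read 7.40, 7.58 and 7.61 with IgG and 8.95, 8.90 and 8.95 with the antibody, a rise of 1.40 (SE 0.07; 2.64-fold; limma adjusted p = 2.3e-05). Fnip2, a partner of folliculin, rose by 0.73 (SE 0.05) and Slc38a9, an arginine sensor of the lysosomal membrane, by 0.67 (SE 0.07). Rragb passed at 0.65 (SE 0.17) but lay below the guide in both groups.

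Of 33 other lysosomal membrane proteins and channels, 20 rose and 1 fell, with a median of 0.35. Slc29a3, a nucleoside transporter, rose by 1.20 (SE 0.05), and Ctns, the cystine exporter, by 1.15 (SE 0.05). Mcoln3, a paralog of Mcoln1, rose by 1.16 (SE 0.11; limma adjusted p = 0.00038), and Tpcn1, a cation channel, by 0.97 (SE 0.06). Clcn3, a relative of Clcn7 in endosomes, fell by 0.40 (SE 0.06; limma adjusted p = 0.0025) and was named after its values were seen.

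Of 12 measured factors that assemble or regulate the proton pump, 2 rose and 2 fell, with a median of 0.07. Over all genes 12.5% were higher and 16.0% lower, and above the guide 20.1% and 26.0%, so these counts are near those shares. The antibody arrays lay wholly above the IgG arrays for 6 of the 12 and wholly below for 2, or 66.7%. Over genes above the guide 59.8% did not overlap. Dmxl1, a part of the complex that joins V1 to V0, rose by 0.43 (SE 0.07; limma adjusted p = 0.0030), while its paralog Dmxl2 fell by 0.20 (SE 0.05; limma adjusted p = 0.029). The call of Dmxl2 was lost with cyclic loess (adjusted p = 0.24), without IgG replicate 2 (0.070) or 3 (0.086) and without antibody replicate 1 (0.087) or 2 (0.092). Tmem199, an assembly factor of the endoplasmic reticulum and Golgi, fell by 0.37 (SE 0.08; adjusted p = 0.011). The other that rose was Atp6v0d2, which was placed in this list but is a form of the d subunit of the pump, and its call was unstable as given above. Counts for this list depended on the setting: 6 were higher with cyclic loess and with genes above the median signal, 4 with genes above the guide, and 1 with median centring, with the replicate number as a block and without IgG replicate 2 or any 1 antibody array. The count that fell was 1 with cyclic loess, with that block and without IgG replicate 2 or 3 or antibody replicate 1 or 2.

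**Figure D4:**
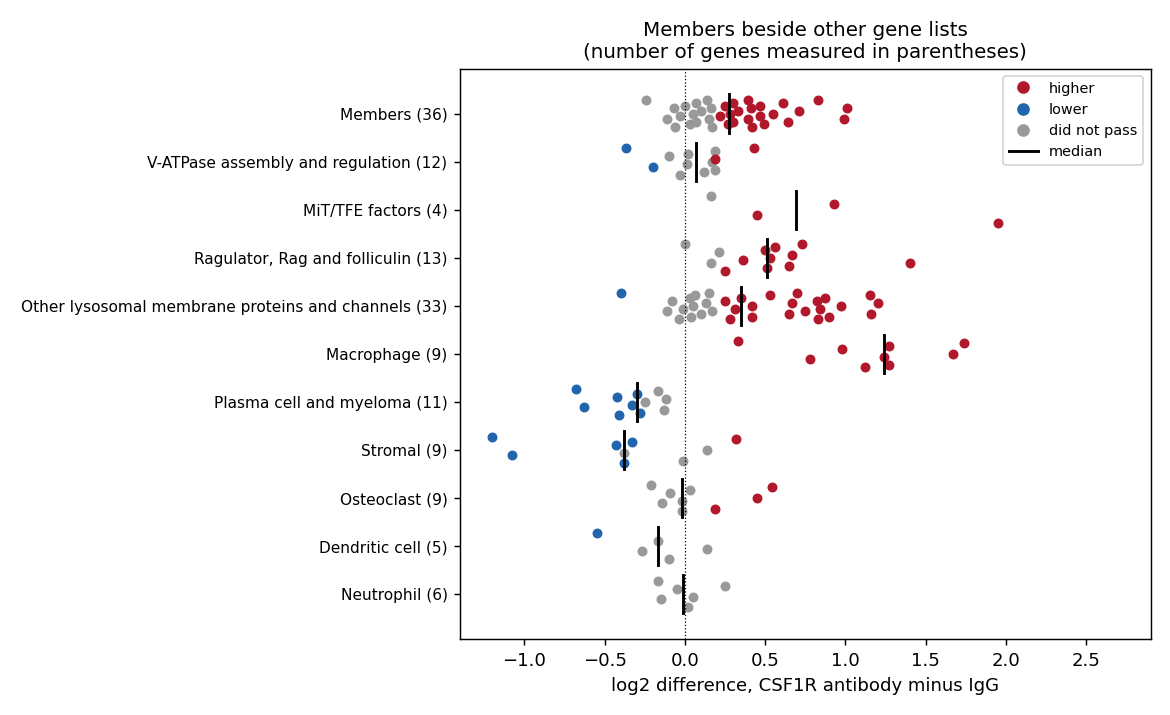
Log2 difference between CSF1R antibody and IgG arrays (horizontal axis) for every measured gene (points) of the members and of 10 other lists, with the median of each list as a line. Red genes were higher, blue genes lower, and grey genes did not pass. The members' median is 0.27, beside 1.24 for macrophage markers, -0.30 for plasma cell and myeloma markers and -0.38 for stromal markers.

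Markers of other cells were followed on the same arrays. Of 9 macrophage markers 9 were higher, with Csf1r at 11.72 ± 0.05 against 10.60 ± 0.05 (SD, n = 3), a rise of 1.12 (SE 0.05; limma adjusted p = 2.0e-05). Of 11 plasma cell and myeloma markers 0 were higher and 7 lower, and of 9 stromal markers 1 was higher and 5 lower. The higher one, Dcn, and also Lum lay below the guide in both groups. Of 9 osteoclast markers 3 were higher and 0 lower: Ctsk rose by 0.54 (SE 0.10), Nfatc1 by 0.45 (SE 0.05) and Atp6v0d2 as above. Calcr, Ocstamp and Oscar lay below the guide in both groups, and the other 6 lay above it in at least 1. Of these 6, Acp5, Dcstamp and Mmp9 did not pass, with differences of -0.02, -0.14 and -0.21. The antibody arrays of Mmp9 lay wholly below its IgG arrays. The median difference of the 9 osteoclast markers was -0.02. Summed levels of the osteoclast list were 10.86 to 10.91 with the antibody and 10.60 to 10.73 with IgG. Of 5 dendritic cell markers 1 was lower, with Flt3 and Xcr1 below the guide, and of 6 neutrophil markers 0 passed the test and 5 lay below the guide. The members' median of 0.27 had the same sign as that of the macrophage markers. The medians of the plasma cell and stromal lists had the opposite sign. Of the 36 members 15 did not pass, and Cd68 belongs to both the members and the macrophage list. The part of each of these lists in the members' changes was not tested.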

How the data were processed

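The deposited values are intensity values of 41345 probe sets on a linear scale, 1 column per array. Per the submitters' processing notes RMA and limma were used, without a version or a stated role for either, and the genome build is not given in the sources used here. RMA as usually run makes distributions alike on all arrays, which would hide a change shared by most genes. No scanner background was used.

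Values were taken as log2. Gene names are those of the platform annotation and may be outdated: 23521 probe sets had 1 symbol, 1814 several and 16010 none. Only those with 1 symbol were used. For 1082 genes with more than 1, the one whose mean over 6 arrays was highest was taken. No filter on low signal was set. The groups were tested in R 4.3.3 by lmFit and eBayes of limma 3.58.1, p-values were adjusted by Benjamini-Hochberg over 22180 genes, and 0.05 was the threshold. SE is limma's moderated standard error. The test was checked on 5 simulated runs in which 200 of 22180 genes changed, far fewer than were called in the data. It found 57.8% of log2 differences of 0.5 and 90.8% of those of 1, and 4.73% of its calls were false. A gene that did not pass may thus still have changed. Figures used Python 3.11.15 and matplotlib 3.10.9. Any member could be named. From each other list up to 4 genes with the largest change past the test were named, and Csf1r and Atp6v0d2 in any case. Tfeb, Clcn3, Acp5, Dcstamp, Mmp9 and the markers that lay below the background guide were named after their values were seen. The members and lists were chosen with earlier results of these data known.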

Additional observations from a re-analysis of the deposited data

Results flagged for a closer look

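A second probe set of Atp6v1b2, left out of the comparison because another had a higher mean, gave a signal above that of the IgG arrays. It read 7.41, 7.27 and 7.02 with IgG and 7.78, 7.69 and 7.78 with the antibody, a rise of 0.51 (SE 0.11; limma adjusted p = 0.023 over all probe sets). The probe set used for Atp6v1b2 rose by 0.47.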

How the results depend on the processing

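Over 15 alternatives no member that passed changed direction, and 16 of the 21 that rose passed in each alternative that tested them. The exceptions, given above, were Atp6v0e, Atp6v1g1, Atp6v1g2, Npc1 and Ostm1. The count of higher members was 17 to 19 when 1 array was left out, 20 with median centring, 26 with cyclic loess, 19 with the mean of probe sets and 21 with the replicate number as a block. The count of lower members was 0, except for 1, Atp6v1f, with genes above the median signal, with genes above the receptor guide and without antibody replicate 1 (0 to 1 when 1 array was left out). The members' median of 0.27 was 0.38 with cyclic loess and 0.22 with the mean of probe sets, and 0.24 to 0.29 when 1 array was left out. Over all genes, 2766 were higher and 3548 lower, and with cyclic loess 3334 and 2444, which moved the upward share of calls from 43.8% to 57.7%. The cause was not tested. Same-numbered arrays did not deviate together over all genes (correlations of 0.03, -0.05 and 0.00). Such correlations cannot tell whether same-numbered cultures shared a mouse. With the replicate number as a block, the calls of Atp6v0d2 (limma adjusted p = 0.073) and Dmxl2 (0.058) were lost. Background correction could not be varied without scanner files, and no slide or scan labels were used. Genes near or below the guide, such as Atp6v1g3, are limited by signal.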

Other observations

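The E-box search was repeated in the promoters of the other lysosomal lists. CACGTG was found for 5 of 12 Ragulator, Rag and folliculin genes with a promoter entry (41.7%), for 6 of 29 other lysosomal membrane proteins and channels (20.7%), for 3 of 8 pump assembly and regulation genes (37.5%) and for 0 of 4 MiT/TFE genes, beside 8.09% of genes in the table. At least 2 matches in a promoter were found for 4 of 29 members, among 184 of the 27025 genes in the table. These shares are descriptions of sequence that do not depend on the arrays, and no binding was measured.

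Lower-signal probe sets of Atp6v1g1 read 6.20 ± 0.09 with IgG and 6.44 ± 0.10 with the antibody, and 5.59 ± 0.09 and 5.76 ± 0.21 (SD, n = 3). Neither passed over all probe sets (limma adjusted p = 0.11 and 0.43).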
